A study of Homo sapiens with 12 samples.

Results

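The genes described here are 8 genes of cholesterol metabolism, taken by symbol from the 63086 genes of the deposited table. They are HMGCS1, IDI1, FDFT1, SQLE and DHCR7, which encode enzymes of the synthesis pathway, SREBF2 and INSIG1, which encode regulators of that pathway, and ABCA1, which encodes a transporter that moves cholesterol out of the cell. The set was named for synthesis and uptake, but none of the 8 encodes an uptake receptor. Uptake is therefore described from a separate list that also holds genes of intracellular handling. RNA was sequenced from MIA PaCa-2, an established human pancreatic carcinoma cell line, in 12 libraries that comprised 3 biological replicates of each of 4 lines. WT was the unmanipulated line, CRISPR Control was a line with only a silent point mutation, and TIMP1 KO 1 and TIMP1 KO 2 were clones edited with gRNAs against exon 4 of TIMP1, the gene of the secreted metalloproteinase inhibitor TIMP-1. All 4 lines grew in the same serum-containing medium without further treatment. Each edited line is a single derivative, so a difference between lines is a difference between these cultures of these clones, and the labels do not say whether replicates came from separate cultures.

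Cells make cholesterol from acetyl-CoA in a long chain of reactions and also take it up in lipoproteins. When sterols in the endoplasmic reticulum are low, SCAP carries the membrane-bound transcription factor SREBP2, the product of SREBF2, to the Golgi for cleavage, and the freed part turns on most synthesis genes, INSIG1 and SREBF2 itself. When sterols are plentiful, INSIG proteins hold SCAP back, and oxysterols activate the nuclear receptors LXR alpha and beta, which turn on the efflux transporters ABCA1 and ABCG1.

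The libraries held 26908701 to 36093563 reads in genes, and a member had between 114 and 6549 reads in a library. Values are normalised read counts, that is, read counts divided by the size factor of the library. TIMP1 itself gave 3290 to 3837 normalised counts in WT, 2285 to 2959 in CRISPR Control, 1562 to 1624 in KO 1 and 1136 to 1192 in KO 2, so its RNA was reduced and not lost in the KO clones. All 6 carcinoma cell markers were detected in every line, but their summed level was 107503 to 135643 in CRISPR Control and 250115 to 315239 in the others. KRT8, KRT18 and KRT19 were each lowest in CRISPR Control, where VIM and EPCAM were at 82.9% and 99.2% of WT. In KO 2, KRT8 and KRT18 were at 74.1% and 64.8% of WT. KRT19 had line means of 15707 in the WT line, 4583 in the CRISPR Control line, 24591 in KO 1 and 52497 in KO 2. CDH1, the gene of E-cadherin, went another way, with line means of 1189 in the WT line, 1424 in the CRISPR Control line, 128 in KO 1 and 84.9 in KO 2. The 11 markers of other cell types summed to 29.5 to 103 normalised counts per library, and 3 to 5 of them were at 0 throughout a line. CRISPR Control therefore stood apart from WT in the keratins and the KO lines in KRT19 and CDH1. Each KO line is compared below with WT and with CRISPR Control separately. The part of these keratin and CDH1 differences in the values of the sterol genes was not tested.

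Differences are log2 fold changes from limma on log2(normalised count + 1), with p-values adjusted by the Benjamini-Hochberg method over 15987 genes, and a gene was called at an adjusted p under 0.05. Of the 8 members, 5 were called in KO 1 against WT, where 35.5% of all genes were called, 6 in KO 2 against WT against a background of 55.0%, and 5 in CRISPR Control against WT against a background of 53.4%. Against CRISPR Control, 6 were called in KO 1 and 7 in KO 2, with backgrounds of 63.0% and 67.7%. KO 2 against KO 1 called 4, with a background of 38.2%. In the mean of the KO lines against the mean of WT and CRISPR Control, named deficient against competent below, all 8 were called, 3 higher and 5 lower, and 65.9% of all genes were called. With backgrounds of this height the counts are no result about these genes, and the levels in each library carry the description. The count in KO 1 against WT was 3 without KO 1 replicate 1 and 3 without KO 1 replicate 3. In bulk RNA, fewer cells that express a gene and less RNA per cell cannot be told apart.

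**Figure D1:**
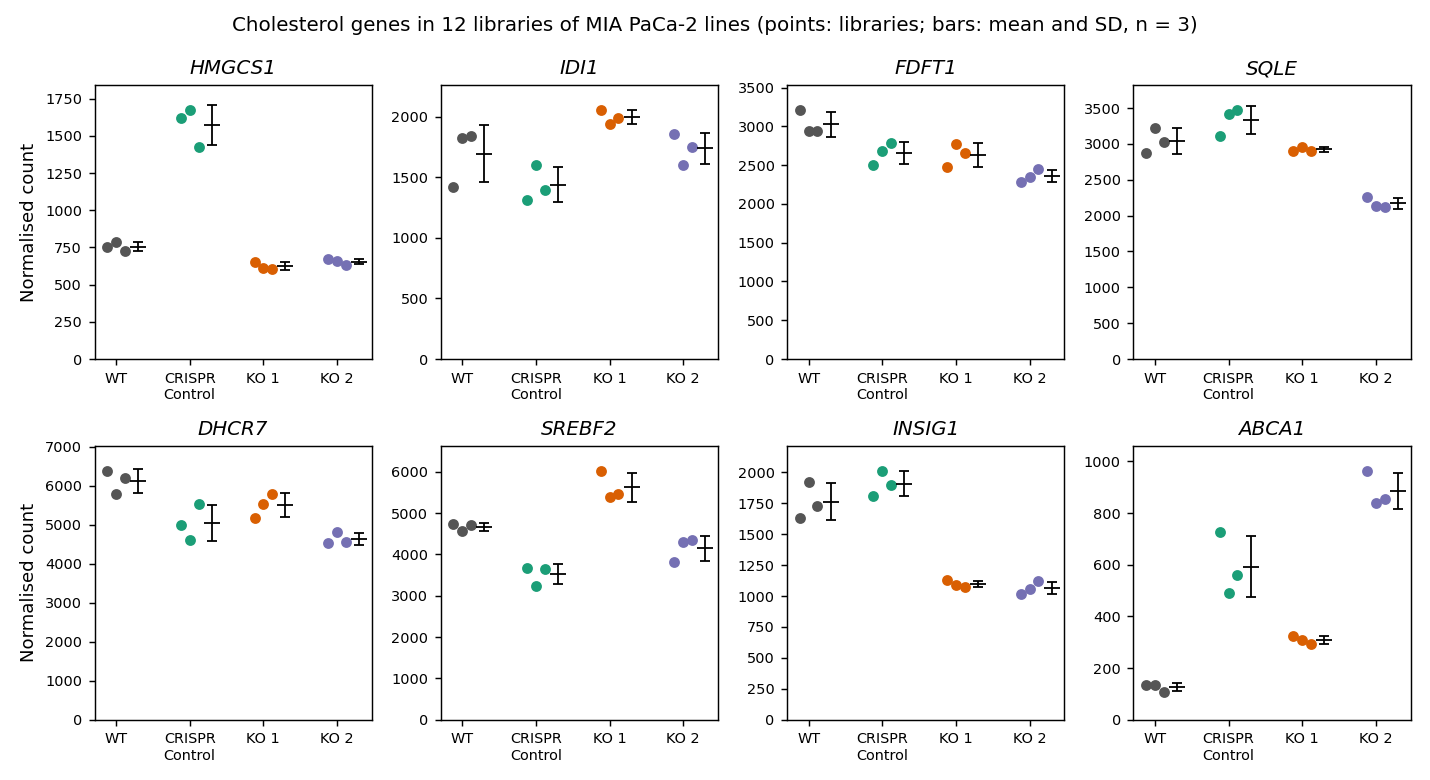
Normalised read count (vertical axes, from 0) of the 8 genes in each of the 12 libraries, grouped by line, with the mean and SD of 3 libraries beside the points. HMGCS1 stands at 1424 to 1675 in CRISPR Control and at 606 to 785 in the other lines, INSIG1 is at or below 1128 in both KO lines and at or above 1632 in WT and CRISPR Control, and ABCA1 takes a separate range in each line.

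HMGCS1 encodes the cytosolic HMG-CoA synthase, which acts early in the pathway. It gave 755, 785 and 729 normalised counts in the WT line, 1620, 1675 and 1424 in the CRISPR Control line, 653, 614 and 606 in KO 1, and 671, 656 and 635 in KO 2. CRISPR Control was the high line, with a mean of 1573 ± 132 (SD, n = 3), and all 6 KO libraries lay below all 6 libraries of WT and CRISPR Control. The level in CRISPR Control was 2.08 times that in WT (log2 fold change 1.05, SE 0.08, adjusted p = 4.32e-09 by limma). Most of the deficient against competent difference (log2 fold change -0.77) thus lay between the KO lines and CRISPR Control, at -1.33 for KO 1 and -1.26 for KO 2. Against WT the values were -0.28 (SE 0.08, limma adjusted p = 0.0140) for KO 1 and -0.21 (SE 0.08, limma adjusted p = 0.0401) for KO 2. The KO 1 call was lost without WT replicate 2 or KO 1 replicate 3, at limma adjusted p of 0.0539 and 0.0567. The KO 2 call was lost without any of the 3 WT libraries, any of the 3 KO 2 libraries or KO 1 replicates 2 or 3, at limma adjusted p between 0.0506 and 0.120. HMGCS1 lies on the minus strand at chr5:43287470-43313512 of GRCh38 (GENCODE release 44) and overlaps an unnamed gene on the other strand. The upstream sequence of its outer RefSeq start is shown because HMGCS1 had the largest difference of the 5 enzymes between deficient and competent lines. It covers chr5:43313513-43313662 on the minus strand, with a CCAAT box, the site of the SREBP partner NF-Y, in capitals.
HMGCS1 upstream: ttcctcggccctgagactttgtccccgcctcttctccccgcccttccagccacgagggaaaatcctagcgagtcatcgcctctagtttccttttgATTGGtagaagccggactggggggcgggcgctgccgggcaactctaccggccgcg

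IDI1 encodes the isomerase that interconverts the isoprenoid building blocks IPP and DMAPP. It gave 1423, 1825 and 1841 normalised counts in the WT line, 1316, 1600 and 1400 in the CRISPR Control line, 2058, 1944 and 1995 in KO 1, and 1862, 1605 and 1753 in KO 2. KO 1 lay above every library of WT and CRISPR Control, while KO 2 overlapped WT and lay just above CRISPR Control. It was the only enzyme of the 5 that was higher in the deficient lines (log2 fold change 0.26 with an SE of 0.07, limma adjusted p = 0.00296). The excess over CRISPR Control was 0.48 in KO 1 (limma adjusted p = 0.000352) and 0.28 in KO 2 on the log2 scale (limma adjusted p = 0.0193). The KO 2 call was lost without CRISPR Control replicate 1 or KO 2 replicate 1, at limma adjusted p of 0.0765 and 0.0801. Against WT neither KO line was called, at 0.25 for KO 1 (limma adjusted p = 0.0599) and 0.04 for KO 2. The KO 1 value passed the threshold without WT replicate 2 or 3 or CRISPR Control replicate 1 or 2, at limma adjusted p of 0.0399 to 0.0436. CRISPR Control against WT gave -0.23 (limma adjusted p = 0.0555), which passed without WT replicate 1 (0.00462) or CRISPR Control replicate 2 (0.0173), and also by edgeR with TMM (0.0303), edgeR with DESeq2 size factors (0.0441), DESeq2 (0.0448) and limma with equal library totals (0.0464). In the order of line means, CRISPR Control, WT, KO 2 and KO 1, no neighbours were called by limma on all 12 libraries, but CRISPR Control and WT were by the alternatives just named, and KO 2 and KO 1 with those lines fitted alone (-0.20, limma adjusted p = 0.0287). The gene lies at chr10:1039152-1049119 on the minus strand and overlaps IDI2-AS1 on the other strand. The strand setting of the counting is not given in the sources used here, so reads of the overlap cannot be told apart.

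FDFT1 encodes squalene synthase, the first enzyme committed to sterols, and SQLE encodes squalene epoxidase, a rate-limiting step after it. FDFT1 gave 3212, 2937 and 2935 normalised counts in the WT line, 2500, 2682 and 2780 in the CRISPR Control line, 2473, 2774 and 2650 in KO 1, and 2288, 2350 and 2449 in KO 2. WT was the high line and KO 2 the low line, and KO 1 and CRISPR Control overlapped. KO 2 was 22.0% below WT (log2 fold change -0.36, SE 0.07, limma adjusted p = 0.000361). KO 1 and CRISPR Control were also below WT, with log2 fold changes of -0.20 (limma adjusted p = 0.0352) and -0.19 (limma adjusted p = 0.0329). The first of these calls was lost without WT replicate 1 or 3 or KO 1 replicate 1 or 3 (limma adjusted p of 0.0563 to 0.160), and the second without WT replicate 1 or CRISPR Control replicate 1 (0.135 and 0.104). KO 2 against CRISPR Control gave -0.17 (limma adjusted p = 0.0474), a call lost in 9 of the 12 fits without a library, all except those without WT replicate 1, CRISPR Control replicate 1 or KO 2 replicate 3, at limma adjusted p of 0.0512 to 0.143. KO 1 against CRISPR Control gave -0.01 with a 95% interval of -0.16 to 0.14.

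SQLE gave 2869, 3228 and 3029 normalised counts in the WT line, 3115, 3422 and 3476 in the CRISPR Control line, 2902, 2964 and 2904 in KO 1, and 2264, 2136 and 2119 in KO 2. KO 2 stood below every other library, whereas KO 1 lay within the WT range. The level in KO 2 was 28.6% below WT (log2 fold change -0.48, SE 0.07, limma adjusted p = 1.03e-05) and 34.9% below CRISPR Control (-0.62, limma adjusted p = 2.69e-07). KO 1 against WT gave -0.06, with a 95% interval of -0.20 to 0.09. KO 1 against CRISPR Control gave -0.19 (limma adjusted p = 0.0244), a call lost without CRISPR Control replicate 2 or 3 or KO 1 replicate 1 or 3, at limma adjusted p of 0.0553 to 0.0789. CRISPR Control against WT gave 0.13 (limma adjusted p = 0.116), which passed without CRISPR Control replicate 1 (limma adjusted p = 0.0369). SQLE at chr8:124998497-125022283 overlaps no other annotated gene, and FDFT1 at chr8:11795573-11839395 overlaps an unnamed gene on the other strand.

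DHCR7 encodes 7-dehydrocholesterol reductase, which makes cholesterol in the last step of a branch of the pathway. It gave 6393, 5788 and 6207 normalised counts in the WT line, 4998, 4607 and 5547 in the CRISPR Control line, 5174, 5540 and 5785 in KO 1, and 4528, 4813 and 4555 in KO 2. WT was highest in all 3 libraries, and CRISPR Control overlapped both KO lines. KO 2 was 24.4% below WT (log2 fold change -0.40, SE 0.08, limma adjusted p = 0.000177) and CRISPR Control 17.6% below WT (-0.28, limma adjusted p = 0.00413). KO 1 against WT gave -0.16 (limma adjusted p = 0.116). Neither KO line was called against CRISPR Control, at 0.13 for KO 1 with a 95% interval of -0.03 to 0.28 and at -0.12 for KO 2 with an interval of -0.28 to 0.04. The KO 1 value passed without CRISPR Control replicate 3 (limma adjusted p = 0.0331) and the KO 2 value without CRISPR Control replicate 2 (0.0353). The deficient against competent value of -0.14 (limma adjusted p = 0.0286) was lost without WT replicate 1 or 3, CRISPR Control replicate 3, KO 1 replicate 1, or KO 2 replicate 1 or 3, at limma adjusted p of 0.0543 to 0.0847. KO 2 was also below KO 1 (-0.25, limma adjusted p = 0.0145), a call lost without KO 1 replicate 3 (limma adjusted p = 0.0765), with equal library totals (-0.14, limma adjusted p = 0.128) and with quantile normalization (-0.17, limma adjusted p = 0.0630). DHCR7 at chr11:71428193-71452868 on the minus strand overlaps an unnamed gene on the other strand.

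Among the 5 enzymes, KO 2 against WT gave 4 lower and none higher, with a median log2 fold change of -0.36, where the median of all genes was -0.01. KO 1 against WT gave 2 lower and none higher, with a median of -0.16. CRISPR Control against WT gave 2 lower and 1 higher, with a median of -0.19. Over 19 enzymes of the pathway, which include the 5, KO 2 against WT gave 11 lower, 2 higher and 6 not called, and KO 1 against WT gave 7 lower, 3 higher and 9 not called. CRISPR Control against WT gave 7 lower, 5 higher and 7 not called. The medians against WT over the 19 enzymes were -0.29 in KO 2, -0.14 in KO 1 and -0.13 in CRISPR Control. The shares of all genes called in these comparisons were 55.0%, 35.5% and 53.4%. Over the 19 enzymes, calls in both directions were thus found in each of these 3 comparisons.

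**Figure D2:**
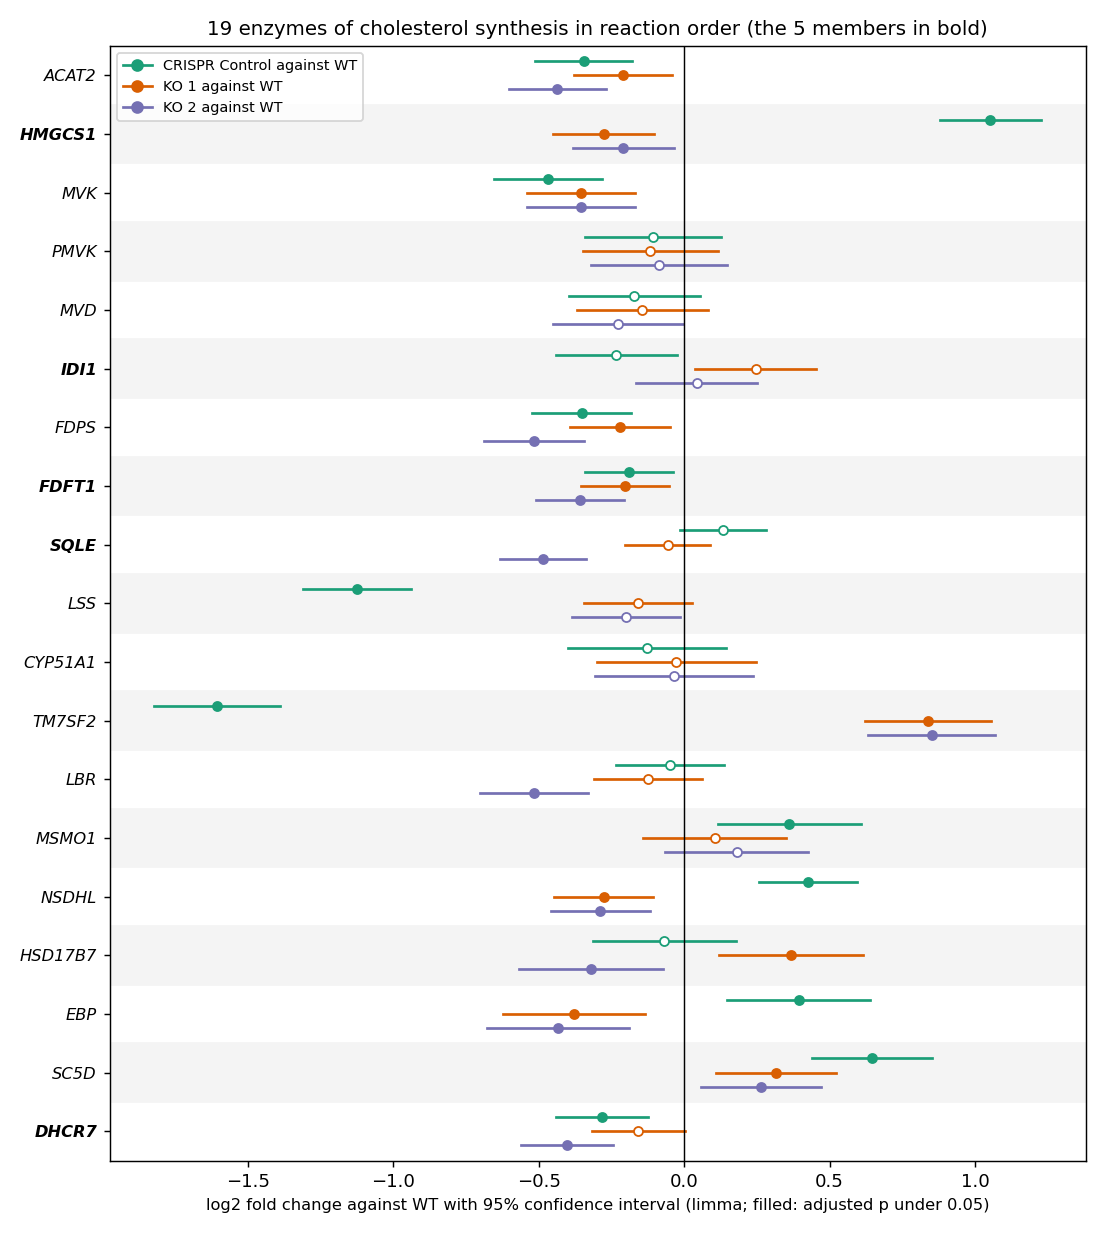
Log2 fold change against WT (horizontal axis, limma, with 95% confidence intervals) of 19 cholesterol synthesis enzymes in reaction order from top to bottom, for CRISPR Control, KO 1 and KO 2. Filled points passed an adjusted p of 0.05. HMGCS1 points right only in CRISPR Control (1.05), whereas TM7SF2 is far left in CRISPR Control (-1.60) and right in KO 1 (0.84) and KO 2 (0.85).

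The other 14 enzymes split in direction between the deficient and competent lines, with 5 lower, 2 higher and 7 not called, where 65.9% of all genes were called. NSDHL, a sterol dehydrogenase that acts in removing methyl groups, followed HMGCS1 in direction at a smaller size. Its levels averaged 2135 in the WT line, 2874 in the CRISPR Control line, 1765 in KO 1 and 1749 in KO 2 (deficient against competent log2 fold change -0.49, limma adjusted p = 3.75e-07). EBP, the sterol isomerase, gave -0.60 in the same comparison, with both KO lines below WT (-0.38 and -0.43) and CRISPR Control above it (0.39). FDPS, which makes farnesyl diphosphate, gave line means of 2037 in the WT line, 1594 in the CRISPR Control line, 1746 in KO 1 and 1426 in KO 2, all 3 edited lines being below WT.

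Both of these that were higher in the deficient lines, TM7SF2 and LSS, were low in CRISPR Control. TM7SF2, a sterol C14 reductase, had line means of 1890 in the WT line, 627 in the CRISPR Control line, 3379 in KO 1 and 3420 in KO 2. The TM7SF2 gene overlaps VPS51 on the same strand. LSS, the lanosterol synthase that follows SQLE, had line means of 2921, 1344, 2614 and 2544, and neither KO line was called against WT. For LSS the difference of the KO lines was therefore with CRISPR Control, at 0.96 for KO 1 and 0.92 for KO 2 on the log2 scale.

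SREBF2 encodes SREBP2, the transcription factor that drives the pathway. It gave 4741, 4557 and 4702 normalised counts in the WT line, 3668, 3236 and 3651 in the CRISPR Control line, 6028, 5378 and 5465 in KO 1, and 3806, 4295 and 4360 in KO 2. KO 1 was high, CRISPR Control low, and the 3 KO 2 libraries lay below WT and above CRISPR Control. KO 1 was 1.21 times WT (log2 fold change 0.27, SE 0.08, limma adjusted p = 0.00922) and 1.60 times CRISPR Control (0.68, limma adjusted p = 2.56e-07). CRISPR Control was 24.6% below WT (-0.41, limma adjusted p = 0.000158), and KO 2 was 0.24 above CRISPR Control on the log2 scale (limma adjusted p = 0.00883). Without KO 1 replicate 1 the KO 1 against WT call was lost (limma adjusted p = 0.0634). KO 2 against WT was in the other direction at -0.17 (limma adjusted p = 0.0623), which passed without CRISPR Control replicate 1 or 2 or KO 2 replicate 3, at limma adjusted p of 0.0369 to 0.0497. KO 2 against KO 1 gave -0.44 (SE 0.08, limma adjusted p = 0.000136). The clones thus differed from each other in SREBF2 RNA, and the level of this RNA does not show how much SREBP2 protein was cleaved. SREBF2 at chr22:41833105-41907306 on the plus strand contains MIR33A and overlaps SREBF2-AS1 on the other strand.

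Promoter windows of 250 bases before the RefSeq start on GRCh38.p14 were used for 6 of the 8 genes, in 10 windows. No window of SQLE or FDFT1 was among those searched, so the motifs of these genes were not tested. The windows were searched on both strands for the SRE motif TCACNCCAC, bound by SREBP, the E-box CACGTG, the CCAAT box, the GC box GGGCGG, and DR4, a pair of AGGTCA repeats with 4 bases between them and at most 1 mismatch in each, the form that LXR binds. Among all 34943 windows searched, 0.881% held the SRE, 6.32% the E-box, 32.0% the CCAAT box, 42.5% the GC box and 1.18% a DR4. The SREBF2 window is shown because only it, of the 10 member windows searched, held the SRE letters. They lay 133 to 125 bases before the start, followed by a CCAAT box 106 to 102 bases before it. It covers chr22:41832855-41833104 on the plus strand, and capitals mark both motifs.
SREBF2 promoter: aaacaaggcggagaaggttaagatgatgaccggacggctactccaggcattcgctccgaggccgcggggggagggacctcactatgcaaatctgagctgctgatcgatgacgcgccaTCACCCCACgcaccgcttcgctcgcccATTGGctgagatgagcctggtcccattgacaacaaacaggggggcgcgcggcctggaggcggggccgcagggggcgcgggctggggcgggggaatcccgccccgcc

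INSIG1 encodes the endoplasmic reticulum protein that retains SCAP and SREBP when sterols are plentiful, and it is itself a classical SREBP2 target. It gave 1632, 1924 and 1728 normalised counts in the WT line, 1812, 2014 and 1897 in the CRISPR Control line, 1128, 1086 and 1077 in KO 1, and 1018, 1056 and 1119 in KO 2. All 6 KO libraries lay below all 6 libraries of WT and CRISPR Control, and the KO lines overlapped each other. INSIG1 was 37.7% below WT in KO 1 (log2 fold change -0.68, SE 0.08, limma adjusted p = 1.68e-06) and 39.6% below WT in KO 2 (-0.72, SE 0.08, limma adjusted p = 3.19e-07). Against CRISPR Control the values were -0.80 and -0.84. CRISPR Control against WT gave 0.12 with a 95% interval of -0.05 to 0.28, and KO 2 against KO 1 gave -0.04 with an interval of -0.21 to 0.12. INSIG1 was the only member called in both KO lines against WT in the same direction without a call in CRISPR Control against WT, which 10.2% of all genes were. FDFT1 joined it without CRISPR Control replicate 1. In every fit without a library, INSIG1 kept its calls in each KO line against WT and against CRISPR Control. A separation of all 6 KO libraries from all 6 others was found in 24.7% of all genes, and among the members for INSIG1 and HMGCS1, both lower in the KO lines.

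The INSIG1 gene lies at chr7:155297776-155310235 on the plus strand and overlaps no other annotated gene. Its upstream sequence is shown because INSIG1 had the steadiest difference between the KO lines and the others. The stretch covers chr7:155297628-155297775, with a CCAAT box in capitals. An E-box lay 55 to 50 bases before the RefSeq start, within the first bases of the GENCODE gene, and it is shown in capitals with 12 bases on each side, at chr7:155297811-155297840. The SRE letters were not in this window.
INSIG1 upstream: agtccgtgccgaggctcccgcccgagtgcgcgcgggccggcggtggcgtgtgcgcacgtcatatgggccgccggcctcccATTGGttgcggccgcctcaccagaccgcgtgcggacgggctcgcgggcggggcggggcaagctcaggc
INSIG1 E-box: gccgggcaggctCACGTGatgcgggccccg

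Of the 12 genes in the list of SREBP processing and sterol sensing, 11 could be tested, and 5 were lower, 1 higher and 5 not called in the deficient lines (65.9% of all genes were called), with a median log2 fold change of -0.12. SCAP, the escort of SREBP, had line means of 2625 in the WT line, 2821 in the CRISPR Control line, 2311 in KO 1 and 2106 in KO 2 (deficient against competent -0.30, limma adjusted p = 0.000189). INSIG2, the second INSIG gene, was not called in any comparison of all 12 libraries (deficient against competent passed without CRISPR Control replicate 2, at 0.17 and limma adjusted p = 0.0432), with line means of 418, 449, 449 and 491. SREBF1, which encodes the fatty acid regulator SREBP1, had line means of 4865 in the WT line, 3177 in the CRISPR Control line, 5509 in KO 1 and 3463 in KO 2. It had the same order of line means as SREBF2 and was lower in KO 2 than in KO 1 (-0.68, limma adjusted p = 2.88e-05). Its deficient against competent value of 0.15 was not called (limma adjusted p = 0.0692) but passed without CRISPR Control replicate 3 (0.0121) or KO 2 replicate 1 (0.00826), and with edgeR (0.0439), equal library totals (0.0124) or quantile normalization (0.0104).

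ERLIN1, a sterol-binding protein of the endoplasmic reticulum that restrains SREBP, had the largest difference in the list (-0.55) and was lower than WT in KO 1 (-0.32) and KO 2 (-0.74) but not in CRISPR Control (0.04, limma adjusted p = 0.605). ERLIN2, its partner, gave -0.33 in the deficient lines and was lower than WT in all 3 edited lines. MBTPS1, the Golgi protease that makes the first cut in SREBP, was called higher in the deficient lines (0.39). It was higher than WT in KO 1 (0.35) and lower than WT in CRISPR Control (-0.34). CH25H, which makes an oxysterol that blocks SREBP, was under the minimum of 10 normalised counts. It had at most 2 reads in a WT, CRISPR Control or KO 1 library and 4, 12 and 7 reads in the KO 2 libraries.

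**Figure D3:**
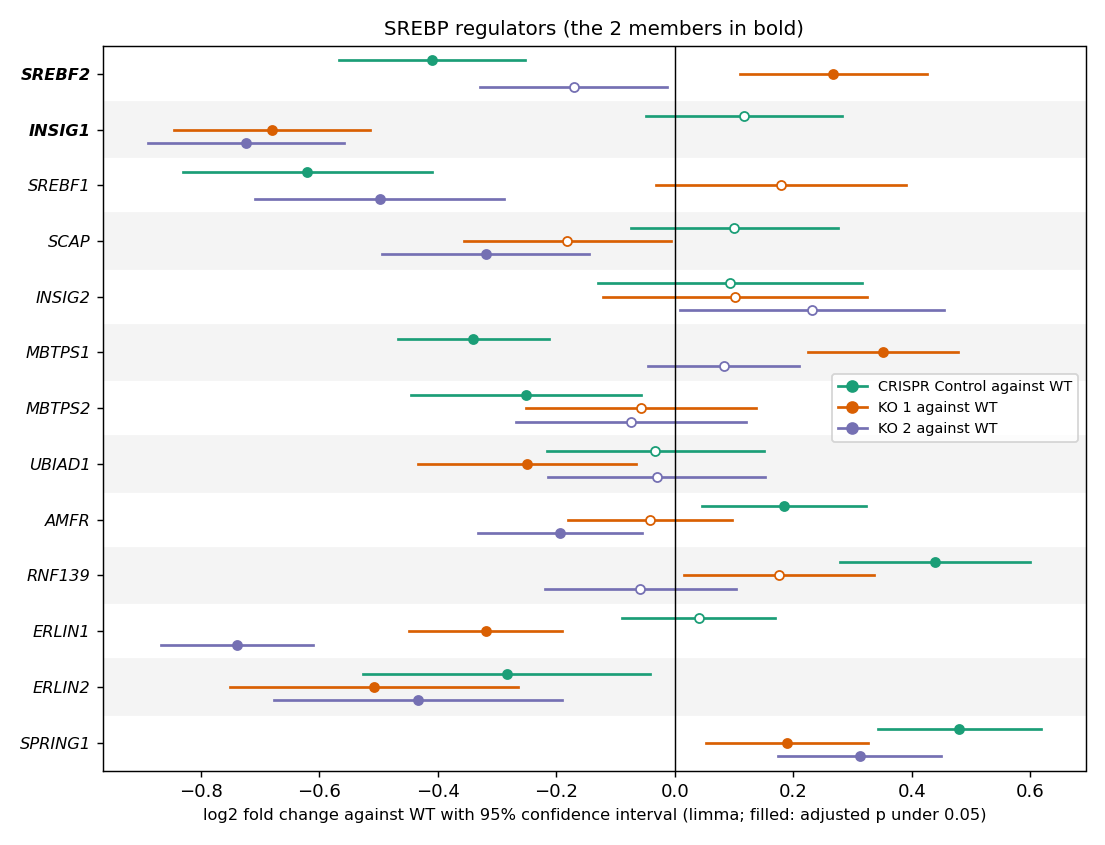
Log2 fold change against WT (horizontal axis, limma, with 95% confidence intervals) of SREBF2, INSIG1 and the 11 other SREBP regulators tested, for CRISPR Control, KO 1 and KO 2. Filled points passed an adjusted p of 0.05. INSIG1 is left of 0 in both KO lines (-0.68 and -0.72) and not in CRISPR Control (0.12), whereas SREBF2 is right of 0 in KO 1 (0.27) and left of it in CRISPR Control (-0.41).

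ABCA1 encodes the transporter that loads cholesterol and phospholipid onto apolipoprotein A-I, and it is a classical LXR target. It gave 134, 136 and 109 normalised counts in the WT line, 726, 492 and 562 in the CRISPR Control line, 323, 311 and 294 in KO 1, and 964, 837 and 855 in KO 2. No library of a line overlapped another line, and the order was WT, KO 1, CRISPR Control, KO 2, with every pair of neighbours different by limma. ABCA1 was 2.45 times WT in KO 1 (log2 fold change 1.29, SE 0.13, limma adjusted p = 3.09e-07), 4.70 times in CRISPR Control (2.21, SE 0.13, limma adjusted p = 7.12e-11) and 7.02 times in KO 2 (2.81, SE 0.13, limma adjusted p = 2.74e-12). The gene was thus raised in all 3 edited lines, and the line with a silent mutation stood between the KO clones. Against CRISPR Control, KO 1 was lower (-0.92, limma adjusted p = 6.37e-06) and KO 2 higher (0.59, limma adjusted p = 0.000584). The deficient against competent value of 0.94 averages these opposite differences. ABCA1 was the most variable member within a line, with a coefficient of variation of 20.2% in CRISPR Control, where replicate 1 was the high library.

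ABCA1 lies at chr9:104781006-104928155 on the minus strand and overlaps an unnamed gene on the other strand. Its promoter window is shown because ABCA1 had the widest range among the members and because, of the member windows searched, only its own held a DR4. The window covers chr9:104928156-104928405 on the minus strand, and capitals mark an E-box 147 to 142 bases and the DR4 69 to 54 bases before the start. A match is a description of the letters and does not show binding.
ABCA1 promoter: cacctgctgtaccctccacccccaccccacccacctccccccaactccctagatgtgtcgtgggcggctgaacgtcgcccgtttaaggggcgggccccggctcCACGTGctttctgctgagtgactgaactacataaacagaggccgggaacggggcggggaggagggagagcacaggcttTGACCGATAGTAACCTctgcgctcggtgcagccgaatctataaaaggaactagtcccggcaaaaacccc

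ABCG1, the efflux transporter that passes cholesterol to HDL, followed the same order of lines at a low level. Its normalised counts were 10.2, 34.5 and 23.8 in the WT line, 86.4, 84.2 and 75.8 in the CRISPR Control line, 59.4, 58.5 and 45.9 in KO 1, and 113, 146 and 157 in KO 2. No line overlapped another, as for ABCA1, although KO 1 against CRISPR Control was not called (limma adjusted p = 0.0943). Over the 12 libraries Pearson's r between the log2 values of ABCA1 and ABCG1 was 0.918, while it was 0.466 between ABCA1 and APOE, an apolipoprotein gene, and -0.715 between ABCA1 and SREBF1, both also LXR targets. These are descriptions in which libraries of a line share their clone. The genes of the LXR receptors themselves differed by less. NR1H2 (LXR beta) was not called in any comparison, with line means of 1672 in the WT line, 1776 in the CRISPR Control line, 1782 in KO 1 and 1718 in KO 2. NR1H3 (LXR alpha) had line means of 371, 470, 436 and 440, and was called against WT in CRISPR Control (0.34) and KO 2 (0.24).

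The list of efflux and LXR targets held 10 genes, among them the receptor genes NR1H2 and NR1H3. Some of its genes are also in other lists described here. In the deficient lines 5 were higher, none lower and 5 not called, with a median log2 fold change of 0.21. The share of all genes called was 65.9%. Against WT, 5 were higher and none lower in KO 1, and 4 were higher and 3 lower in KO 2. In CRISPR Control against WT, 2 were higher and 4 lower. The shares of all genes called in KO 1, KO 2 and CRISPR Control against WT were 35.5%, 55.0% and 53.4%. Besides ABCG1, the largest deficient against competent values were those of ABCA7 (0.93) and ABCC1 (0.77), both ABC transporters. These did not follow ABCA1, since CRISPR Control was below WT in both, at -0.82 for ABCA7 and -0.95 for ABCC1. ABCA7 was above WT in KO 1 (0.41) and KO 2 (0.63), and ABCC1 in KO 1 (0.40) but not called in KO 2 (0.19).

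**Figure D4:**
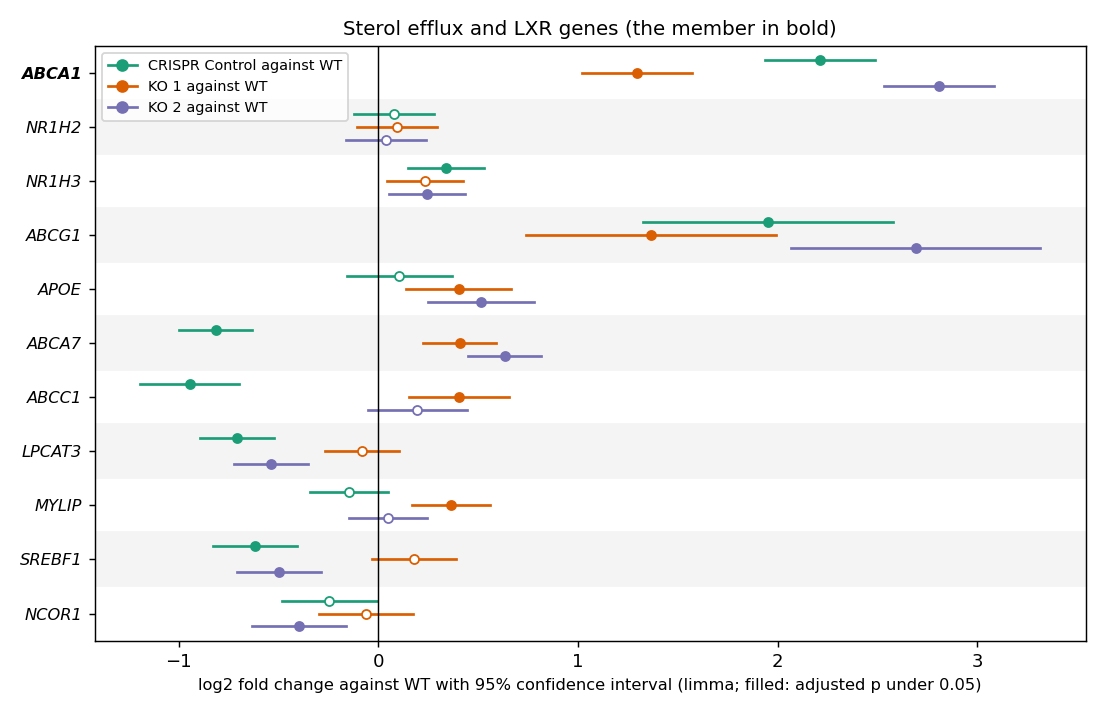
Log2 fold change against WT (horizontal axis, limma, with 95% confidence intervals) of ABCA1 and the 10 genes of the efflux and LXR list, for CRISPR Control, KO 1 and KO 2. Filled points passed an adjusted p of 0.05. ABCA1 and ABCG1 lie right of 0 in all 3 lines, with KO 2 farthest (2.81 and 2.69), whereas ABCA7 and ABCC1 lie left of 0 in CRISPR Control.

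For uptake, the list of uptake and intracellular handling held 13 genes, all tested. In the deficient lines 7 were higher, 4 lower and 2 not called, with a median of 0.17, where 65.9% of all genes were called. These counts mix uptake with handling, and receptors of the list did not move together. VLDLR had line means of 57.4 in the WT line, 85.8 in the CRISPR Control line, 111 in KO 1 and 50.8 in KO 2. SCARB1 had line means of 2024, 2186, 1756 and 1586, and LRP1 of 1390, 1793, 2098 and 2298. STARD4, a cytosolic sterol carrier and SREBP2 target, had the largest difference of this list (-1.17). Its line means of 187 in the WT line, 546 in the CRISPR Control line, 124 in KO 1 and 161 in KO 2 had the same order of lines as those of HMGCS1. LIPA, the lysosomal lipase that frees cholesterol from lipoproteins, had line means of 9787 in the WT line, 3254 in the CRISPR Control line, 9587 in KO 1 and 10706 in KO 2. LIPA was not called in either KO line against WT, so its deficient against competent value of 0.84 lay with CRISPR Control. The LIPA gene overlaps 6 genes on the other strand, among them IFIT1, IFIT2 and IFIT3, and the strand setting of the counting is not given. NPC2, which hands cholesterol out of the lysosome, was higher than WT in KO 1 (0.37) and KO 2 (0.66) and gave 0.01 in CRISPR Control (limma adjusted p = 0.913).

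**Figure D5:**
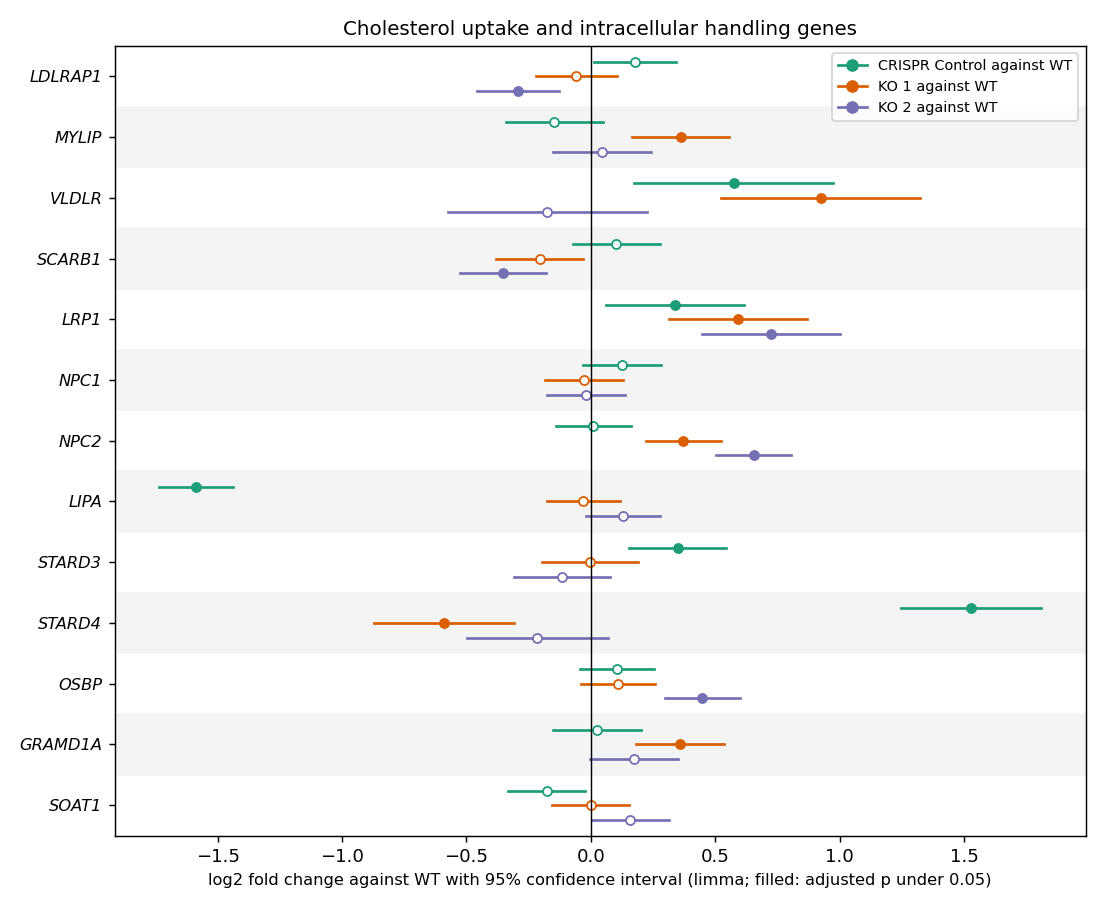
Log2 fold change against WT (horizontal axis, limma, with 95% confidence intervals) of the 13 uptake and handling genes tested, for CRISPR Control, KO 1 and KO 2. Filled points passed an adjusted p of 0.05. STARD4 is far right (1.53) and LIPA far left (-1.59) in CRISPR Control, and NPC2 and LRP1 are right of 0 in both KO lines. In CRISPR Control the line mean of LRP1 was 1.29 times WT.

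Levels between genes can be compared only roughly per length, because exon bases were taken over all annotated transcripts of a gene. Over the 12 libraries, DHCR7 was highest with 775 normalised counts per kilobase of exon, followed by SQLE with 666, SREBF2 with 558, FDFT1 with 525, IDI1 with 400, INSIG1 with 399, HMGCS1 with 136 and ABCA1 with 42.2. The replicates were close, with a coefficient of variation over the 8 genes and 4 lines of 1.21% to 20.2% and a median of 5.48%. Pairs of members ranged widely in likeness over the 12 libraries. The log2 values of FDFT1 and DHCR7 had a Pearson's r of 0.859, ABCA1 and DHCR7 of -0.887, and IDI1 and HMGCS1 of -0.731. These values describe 12 libraries of 4 lines, and libraries of a line share their clone.

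The mean standardised log2 value of the 5 enzymes was 0.411 to 0.576 in WT, -0.110 to 0.417 in CRISPR Control, -0.0197 to 0.237 in KO 1 and -0.929 to -0.803 in KO 2. KO 2 was low in all 3 libraries, and CRISPR Control overlapped WT and KO 1. Of 11634 other genes with a mean of at least 100 normalised counts, the 5 most like this profile were LSM2, RHNO1, CDCA3, AURKA and UCK2, with Pearson's r of 0.983, 0.983, 0.980, 0.979 and 0.977 over the 12 libraries. In all, 298 genes had an r over 0.9, so the profile was shared by many genes that are low in KO 2.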

How the data were processed

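RNA of the 12 libraries was measured by paired-end sequencing. The authors removed adapters with Cutadapt, used STAR to map the reads to GRCh38, obtained read counts per gene from featureCounts and scaled them with DESeq2. The deposited values are a signal, read counts divided by a size factor per library, and the annotation release and strand setting are not given in the sources used here. Scaling sets the typical gene equal between libraries, so a shift of most genes would be hidden. Dividing by the step of each library returned whole reads for 100% of values within 0.01 reads, which gave depth and the count tests. The table had 1 blank line, left out, and 4 columns of line means, not used.

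Groups and replicate numbers came from the titles. Genes with a mean of at least 10 normalised counts (15987 genes, 99.9% of reads) were fitted as log2(normalised count + 1) with limma 3.58.1 (R 4.3.3), with a mean for each of the 4 lines over all 12 libraries, a trended prior, two-sided tests and Benjamini-Hochberg adjustment (threshold 0.05). P-values measure the spread between these libraries, which may be technical. Fold changes of low genes are understated on this scale. Comparisons that share a line are not independent. The code was tested on simulated data.

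The alternatives were a pseudocount of 10, no minimum, a minimum of 50, equal library totals, quantile normalization, a replicate block, the compared lines alone, each library left out, edgeR 4.0.16 with TMM or DESeq2 size factors, and DESeq2 1.42.0. The 8 genes, the gene lists, the naming rule and the tests were chosen with earlier results of these data known. Named besides the members were the 3 largest called differences between deficient and competent lines in each list, a set of known regulators (FDPS, LSS, SCAP, INSIG2, SREBF1, NR1H2, NR1H3, CH25H), TIMP1 and the 5 genes most like the enzyme profile. FASN, SCD, VLDLR, SCARB1, LRP1, KRT8, KRT18, KRT19, VIM, EPCAM, CDH1 and APOE were named after their values were seen. Of gene identifiers, 99.1% matched the gene name table used here, and gene coordinates are of GENCODE release 44 on GRCh38. Sequences are from RefSeq on GRCh38.p14. Some genes of the pathway are not reported here, and the lists were counted without them.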

Additional observations from a re-analysis of the deposited data

Results flagged for a closer look

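A difference between the KO clones under the same contrast with WT was found for 4 of the 8 genes by the limma test of KO 2 against KO 1, which called 38.2% of all genes, so the count itself is near the background. SQLE differed by -0.43 on the log2 scale, DHCR7 by -0.25 and SREBF2 by -0.44, all lower in KO 2, and ABCA1 by 1.51, higher in KO 2. The DHCR7 call was lost without KO 1 replicate 3 (limma adjusted p = 0.0765), with equal library totals (0.128) and with quantile normalization (0.0630). SQLE was lower in each KO 2 library than in each KO 1 library, as were DHCR7 and SREBF2, and ABCA1 was higher in each. Groups of 3 libraries are too small for a check of single outlying libraries. The clones also differed in TIMP1 RNA, at 1562 to 1624 normalised counts in KO 1 and 1136 to 1192 in KO 2, and its part in these differences was not tested.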

How the results depend on the processing

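Of the member values recomputed under the other settings, 520 kept direction and call, 20 lost the call, 8 gained it and 4 reversed in direction. In the fits without a library the numbers were 617, 39, 12 and 4. ABCA1 kept every call, and INSIG1 every call against WT and CRISPR Control. The values that reversed were all small and uncalled. IDI1 in KO 2 against WT became -0.0779 without WT replicate 1 and -0.00652 without KO 2 replicate 1, in a range of -0.0779 to 0.108 over the fits without a library. FDFT1 in KO 1 against CRISPR Control became 0.000165 with equal library totals, 0.0116 with quantile normalization, 0.000902 with edgeR, 0.0222 without CRISPR Control replicate 3 and 0.0322 without KO 1 replicate 1, in a range of -0.0545 to 0.0322 without a library. INSIG1 in KO 2 against KO 1 became 0.0584 with equal library totals. In deficient against competent, NR1H2 became -0.0251 without CRISPR Control replicate 1, in a range of -0.0251 to 0.0843, and NR1H3 became -0.0388 with quantile normalization. Members called in KO 1 against WT numbered 3 to 6 over the fits without a library. The members called in both KO lines but not in CRISPR Control numbered 2 with the compared lines alone, and 1 to 2 without a library. FDFT1 in KO 2 against CRISPR Control was not called by edgeR (adjusted p = 0.0953), edgeR with DESeq2 size factors (0.0510) or DESeq2 (0.0514). By limma it was not called with no minimum (adjusted p = 0.0863) or the compared lines alone (0.108). Its log2 fold change of -0.17 shrank to -0.05 with equal library totals (limma adjusted p = 0.508) and to -0.07 with quantile normalization (0.395). HMGCS1 in KO 2 against WT was not called by edgeR (0.0511) or with equal library totals (0.283). DHCR7 in deficient against competent was not called with equal library totals (0.151) or quantile normalization (0.256). The cause of these changes was not tested. Equal library totals moved the median of all genes in KO 2 against CRISPR Control to 0.105.

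Replicate numbers did not pair the libraries. The 18 correlations between same-numbered libraries ran from -0.129 to 0.160, 2 were over 0.1, and 6 were the best for their number. With the replicate block, FDFT1 in KO 2 against CRISPR Control was not called (limma adjusted p = 0.0593) and SREBF1 in deficient against competent was called (0.15, limma adjusted p = 0.0459). SREBF1 was also called with edgeR (0.16), equal library totals (0.20), quantile normalization (0.21) and without CRISPR Control replicate 3 (0.20) or KO 2 replicate 1 (0.21).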

Other observations

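The fatty acid synthesis genes, which SREBP1 controls more than SREBP2, were measured in the same libraries. Of the 12 genes of this list, 11 could be tested, and all 11 were called in KO 2 against WT, 8 lower and 3 higher, with a median log2 fold change of -0.52, where 55.0% of all genes were called. KO 1 against WT gave 3 lower, 1 higher and 7 not called, with a median of -0.07, where 35.5% of all genes were called. CRISPR Control against WT gave 7 lower, 3 higher and 1 not called, with a median of -0.38, where 53.4% of all genes were called. FASN, the fatty acid synthase, had line means of 26067 in the WT line, 24551 in the CRISPR Control line, 18116 in KO 1 and 12298 in KO 2. SCD, which makes monounsaturated fatty acids, had line means of 25384, 35543, 20763 and 12308. Both were named after their values were seen.

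ELOVL6, an elongase of saturated fatty acids, had the largest difference between deficient and competent lines of the list (2.23), with line means of 342 in the WT line, 52.6 in the CRISPR Control line, 441 in KO 1 and 890 in KO 2. ME1, which supplies NADPH, went the other way (-1.28), with line means of 1197, 3861, 881 and 885. ACSS2, which makes acetyl-CoA from acetate, was higher than WT in KO 1 (0.69) and KO 2 (1.14) and lower in CRISPR Control (-0.49).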
